A study of Mus musculus with 24 samples.

Results

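The genes described here are the nuclear genes of oxidative phosphorylation, the 5 protein complexes of the inner mitochondrial membrane that carry electrons to oxygen and make ATP. They were chosen by symbol: Nduf genes without the Ndufaf assembly factors (complex I), Sdha to Sdhd (complex II), Uqc genes (complex III), Cox4 to Cox8 genes (complex IV) and Atp5 genes (complex V). Of the 14351 genes measured, 76 matched, with 33 in complex I, 4 in complex II, 9 in complex III, 16 in complex IV and 14 in complex V. Another 15 protein-coding symbols of the reference table match the rule but had no named probe set here, among them Ndufv2, Uqcrb, Cox7b and Cox7c. Only Cox6b2 had 2 probe sets, whose log2 changes in adults at 90 min were 0.28 and 0.27. None of the 13 subunits encoded by mitochondrial DNA was paired with a probe set, so the data cover the nuclear share of each complex.

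Liver RNA of 24 mice was hybridised to Affymetrix 3' expression arrays, with 3 arrays in each of 8 groups. The young animals were aged 4 to 5 weeks and the adults 12 to 14 months. Each age had sham-operated animals and animals whose blood flow to part of the liver was interrupted for 30, 60 or 90 min (partial ischemia). The tissue was the median and left lobes, the labels give no genotype, strain or drug, and the titles write a 0 after each ischemia time without saying what it counts. The labels do not say outright that each array is a separate animal, although the series design speaks of 12 young and 12 adult mice, so the p-values measure the spread between arrays. The comparisons ask how far the transcripts of each complex move with each length of ischemia, and whether the move differs between the ages.

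Complex I (NADH dehydrogenase) and complex II (succinate dehydrogenase, also an enzyme of the tricarboxylic acid cycle) pass electrons to ubiquinone, complex III passes them to cytochrome c, complex IV (cytochrome c oxidase) hands them to oxygen, and complex V (ATP synthase) uses the proton gradient so built. Hepatocytes are rich in mitochondria and rely on this pathway for urea synthesis and gluconeogenesis. During ischemia oxygen, the last acceptor of the chain, runs short.

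The deposited values are ratios in which the mean of the 3 sham arrays of an age is 1 for every probe set, so they show changes against sham liver of the same age and no absolute level, and sham livers of the 2 ages cannot be compared. Array median ratios over all 26180 probe sets lay between 0.955 and 1.02, no 2 arrays held identical values, and the number of arrays limits the precision. The 14 measured hepatocyte markers were present in the table, but whether any probe set stood above background cannot be read from ratios. In bulk tissue, fewer cells of a type and less RNA per cell cannot be told apart.

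In adult mice the members were lower after 60 and 90 min of ischemia. At 60 min 15 of 76 fell and 1 rose (adjusted p under 0.05 in limma over all genes), where 9.78% of all genes fell and 2.15% rose, and the median log2 change of the members was -0.39 against -0.05 over all genes. At 90 min 7 of 76 fell and 0 rose, against 6.28% and 1.17% of all genes, with a median of -0.33 against -0.04. The count of 7 is near the share of all genes. At 60 min 72 members lay below 0 (58.7% of all genes did), and in 45 all 3 ischemia arrays lay below all 3 sham arrays, against 25.9% of all genes. At 90 min the same held for 70 members (56.5% of all genes) and 46 members (26.4% of all genes). The members that fell at 90 min were Sdhd, Ndufs4, Ndufa9, Ndufs3, Ndufa4, Atp5b and Cox7a2l, and Ndufa4 and Cox7a2l were the ones that had not passed at 60 min. The counts were sensitive to single arrays. At 60 min the count of 16 became 0 with replicate 1 or 3 of the adult sham arrays left out and 0 with replicate 2 or 3 of the 60 min arrays left out. It became 1 without replicate 2 of the sham arrays and 29 without replicate 1 of the 60 min arrays. At 90 min the count of 7 became 1 with replicate 1 or 2 of the adult sham arrays left out and 0 with any of the other 4 arrays of that comparison left out. After quantile normalization of the log2 ratios 0 passed at either time, and in a fit to the adult arrays alone 7 passed at 60 min and 0 at 90 min. The log2 changes of the 16 and 7 members kept their sign in each of those fits.

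**Figure D1:**
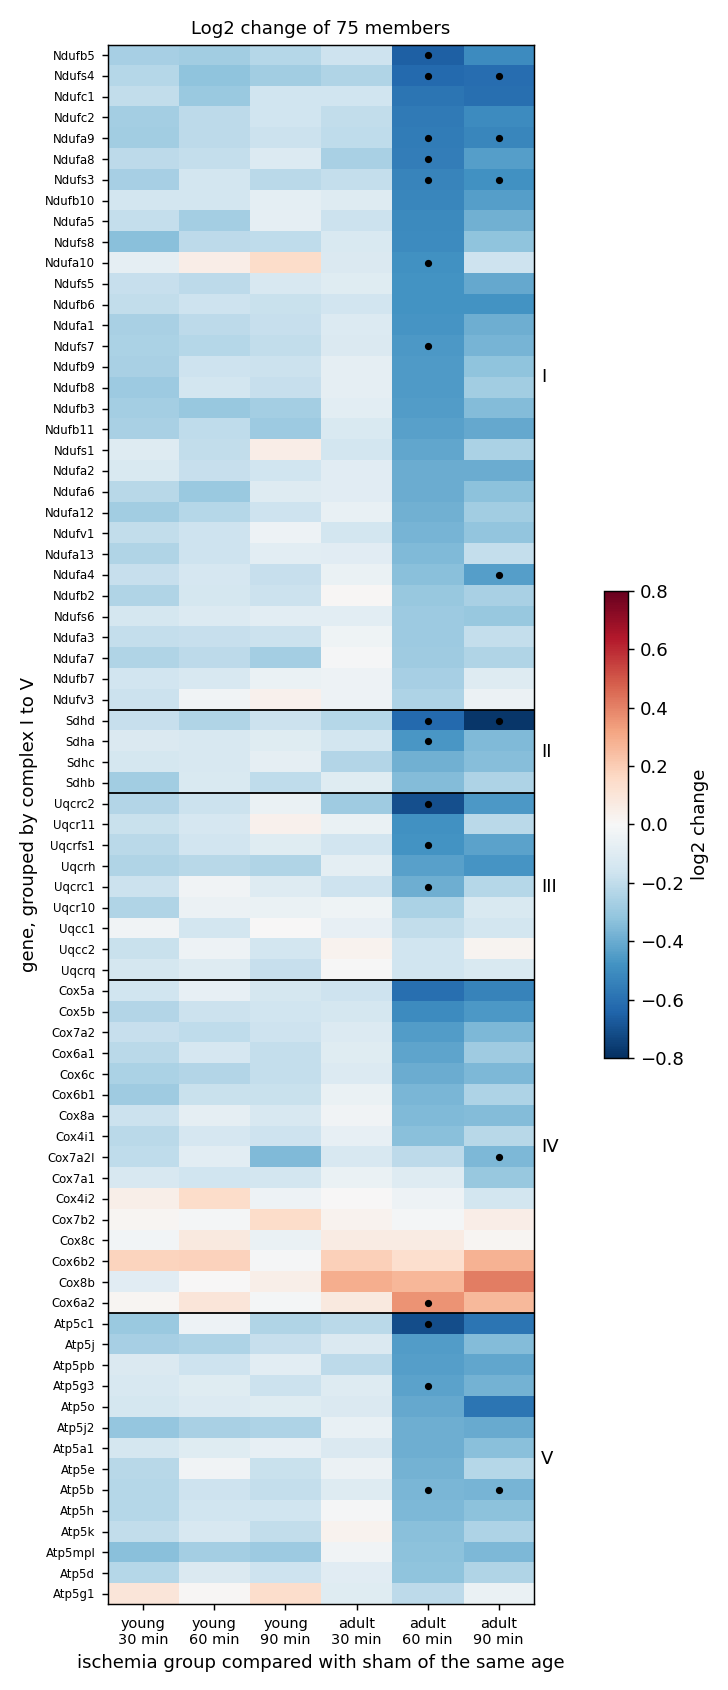
Log2 change against sham of the same age for 75 of the 76 members (rows, grouped by complex I to V and ordered within a complex by the adult 60 min value) in the 6 comparisons with sham (columns). Blue is lower and red higher than sham, black points mark members that passed (adjusted p under 0.05 in limma): 16 in adults at 60 min, 7 in adults at 90 min and 0 in the other columns.

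The array medians show how the members moved together within an array. Over all members the medians were -0.01, 0.10 and -0.10 in the 3 adult sham arrays, -0.21, -0.12 and 0.06 at 30 min, -0.19, -0.29 and -0.75 at 60 min and -0.22, -0.20 and -0.57 at 90 min. All 6 adult arrays at 60 and 90 min were below the 3 sham arrays, while the 30 min arrays overlapped them. Replicate 3 was the lowest at both times, and adult 60 min replicate 3 was the lowest of the 24 arrays. Within an array the medians of the 5 complexes stayed within 0.03 to 0.18 of each other, so an array that was low for one complex was low for all. The same low arrays were also low in other gene groups. In adult 60 min replicate 3 the median was -0.50 for the 14 hepatocyte markers, -0.60 for 34 genes with cytosolic ribosomal protein symbols (Rpl and Rps) and -0.49 for 73 mitochondrial ribosomal protein genes, and in adult 90 min replicate 3 these medians were -0.42, -0.36 and -0.45. The median of all genes in those arrays was -0.07 and -0.06. The part of these other groups in the members' values was not tested. Without adult 60 min replicate 3 the log2 changes of the 16 members that passed at 60 min were 60.9% to 91.7% of their values with it.

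**Figure D2:**
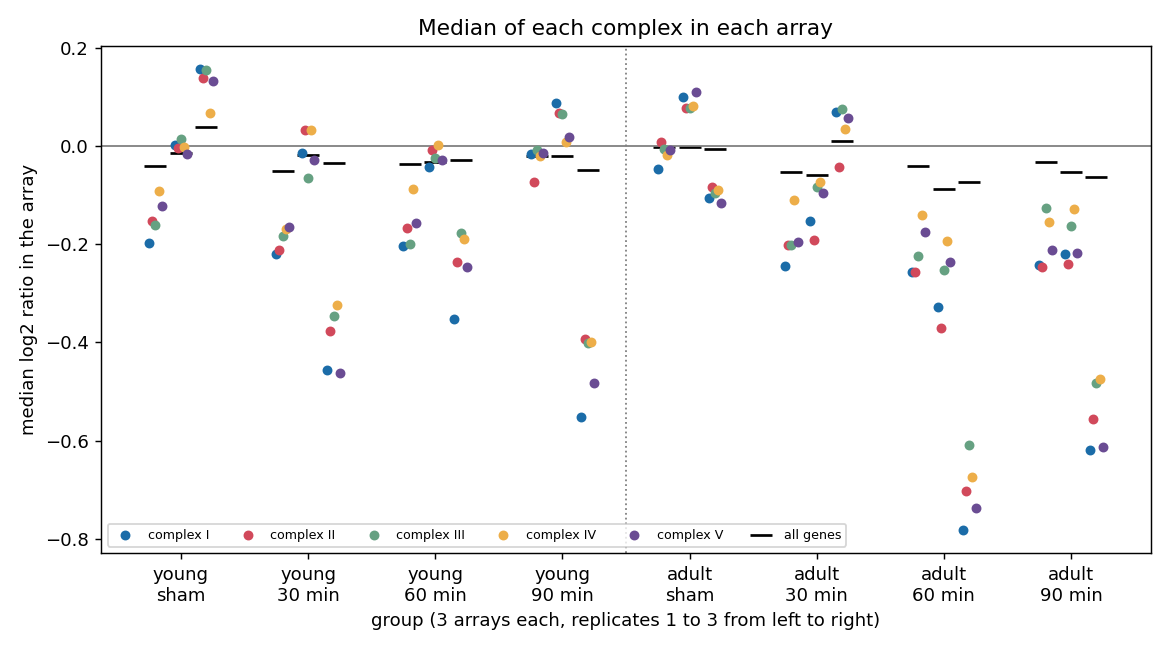
Median log2 ratio of each of the 5 complexes (coloured points) and of all genes (black bars) in each of the 24 arrays, by group, with replicates 1 to 3 from left to right. The complexes sit close together within each array, and adult 60 min replicate 3 is lowest, at -0.75 over all members.

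RefSeq promoter windows (GRCm38.p6, 250 bases before to 50 after a gene's start, 300 bases in all) were listed for 62 of the 76 members, 5 of them with 2 starts. These windows were searched on both strands for letters of factors known from nuclear genes of the respiratory chain. The NRF1 letters GCGCANGCG were in the windows of 17 of the 62 members (27.4%), against 12.1% of 11387 measured genes and 6.25% of all 32851 windows. Those 17 were Ndufa5, Ndufa6, Ndufa8, Ndufb10, Ndufs5 and Ndufs6 in complex I, Sdha and Sdhd in complex II, Uqcc2, Uqcr11 and Uqcrc1 in complex III, Cox6a1 in complex IV, and Atp5c1, Atp5g3, Atp5h, Atp5k and Atp5o in complex V. The ETS family letters CCGGAAG were in 15 members (24.2%) against 15.7% of measured genes and 8.86% of windows. The YY1 letters AANATGGCG were in 10 members (16.1%) against 4.45% and 2.38%. Of these, 7 were complex I genes (Ndufa7, Ndufa9, Ndufb11, Ndufc1, Ndufs4, Ndufs6 and Ndufs7) and 3 were complex V genes (Atp5b, Atp5j and Atp5j2). The ERR letters AAGGTCA were in 6 members (9.68%) against 4.53% and 4.72%, the letters CCAAT in 27 (43.5%) against 42.7% and 37.4%, and the TATA box letters TATAAA in 6 (9.68%) against 11.5% and 13.6%. In adults at 60 min the median log2 change was -0.43 in the 17 members with the NRF1 letters and -0.39 in the 45 without. It was -0.44 in the 10 with the YY1 letters and -0.40 in the 52 without. For the ETS letters it was -0.42 in the 15 with and -0.41 in the 47 without. At 90 min the medians with and without were -0.35 and -0.34 for NRF1, and -0.39 and -0.32 for YY1. For ETS they ran the other way at 90 min, at -0.32 with and -0.36 without. These differences were not tested. A match describes letters and does not show that a factor binds. The 150 bases before the start are printed for Sdhd and Atp5c1, which had the lowest values in adults at 90 and at 60 min, and for Cox8a and Cox8b, the broad and the muscle form of 1 subunit, whose log2 changes in adults had opposite signs, although neither passed. Capitals mark the NRF1 letters and, in Sdhd alone, also the ETS letters in reverse orientation, and each sequence runs 5′ to 3′ along the gene, all 4 genes being on the minus strand.
Sdhd, chr9:50603850-50603999: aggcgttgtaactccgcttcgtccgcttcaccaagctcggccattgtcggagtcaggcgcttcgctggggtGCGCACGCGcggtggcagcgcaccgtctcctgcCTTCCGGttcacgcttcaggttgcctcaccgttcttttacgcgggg
Atp5c1, chr2:10080433-10080582: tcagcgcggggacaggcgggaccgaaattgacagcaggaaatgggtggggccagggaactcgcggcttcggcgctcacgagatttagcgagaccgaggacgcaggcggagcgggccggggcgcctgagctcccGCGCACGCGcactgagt
Cox8a, chr19:7217617-7217766: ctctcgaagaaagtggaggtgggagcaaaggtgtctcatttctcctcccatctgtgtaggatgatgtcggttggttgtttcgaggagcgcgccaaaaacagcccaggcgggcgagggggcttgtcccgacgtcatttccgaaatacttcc
Cox8b, chr7:140900447-140900596: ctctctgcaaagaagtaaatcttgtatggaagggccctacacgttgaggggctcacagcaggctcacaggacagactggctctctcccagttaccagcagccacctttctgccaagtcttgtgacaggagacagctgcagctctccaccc
In Sdhd the NRF1 letters begin at position -79 and the ETS letters at position -46, counted with -1 as the last base before the start. In Atp5c1 the start shown is the one of 2 listed whose window holds the NRF1 letters, which begin at position -17. The Cox8a window also holds the ETS letters, across its start and so past the stretch shown. Outside the stretches shown, the windows listed for these genes also hold the ERR letters in Sdhd and the letters CCAAT in Atp5c1 and Cox8a. Those of Cox8b hold the TATA box letters. The stretches hold 19 CG pairs in Sdhd, 20 in Atp5c1, 10 in Cox8a and 1 in Cox8b. Over whole windows the median was 19 CG pairs (7 to 43) in the 58 members outside the tissue forms of complex IV. In the 4 tissue forms that had a window it was 8.5 (2 to 10), and over all windows it was 7.

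Complex I was lower in adults throughout its parts. At 60 min all 33 members lay below 0, 7 fell (Ndufb5, Ndufs4, Ndufa9, Ndufa8, Ndufs3, Ndufa10 and Ndufs7), and in 20 the arrays did not overlap, with a median of -0.45. At 90 min all 33 again lay below 0, with a median of -0.35, and in 22 the arrays did not overlap. At that time 4 fell: Ndufs4, Ndufa9, Ndufs3 and, kept here by its symbol, Ndufa4. The counts of each complex stand against the same shares of all genes. In adults at 60 min 58.7% of all genes lay below 0, 9.78% fell, 2.15% rose and 25.9% had all arrays below sham. At 90 min these shares were 56.5%, 6.28%, 1.17% and 26.4%. The counts of 1 that fell at 90 min in complex IV and in complex V were close to the share of all genes. The 6 measured core subunits, which carry the flavin, the iron-sulfur clusters and the ubiquinone site, had a median of -0.44 at 60 min, and the 27 accessory subunits -0.45. Of these, Ndufs3 was at -0.53, Ndufs8 at -0.50, Ndufs7 at -0.46, Ndufs1 at -0.41 and Ndufv1 at -0.37 at 60 min, steps that were each smaller than the standard errors of 0.13 to 0.18.

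Ndufs4 is an accessory subunit needed for a stable complex I. In adults its ratios were 0.958, 1.13 and 0.912 in sham liver, 0.700, 0.843 and 1.01 at 30 min, 0.745, 0.686 and 0.527 at 60 min and 0.669, 0.722 and 0.579 at 90 min. The 6 arrays at 60 and 90 min were below every sham array, and the 30 min arrays overlapped sham. Ndufs4 fell by 0.62 on the log2 scale at 60 min (SE 0.18, adjusted p = 0.0351) and by 0.61 at 90 min (adjusted p = 0.0428).

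Ndufs3 is a core subunit of the arm that reaches into the matrix. Its adult ratios were 1.08, 0.988 and 0.929 in sham, 0.805, 0.812 and 1.02 at 30 min, 0.723, 0.707 and 0.648 at 60 min and 0.749, 0.787 and 0.613 at 90 min. Its 60 min arrays were close together and clear of sham, and it fell by 0.53 (SE 0.13, adjusted p = 0.0295) at 60 min and by 0.49 at 90 min (adjusted p = 0.0319). Ndufa9, an accessory subunit near the junction of the 2 arms, fell by 0.56 at 60 min (adjusted p = 0.0305) and by 0.52 at 90 min (adjusted p = 0.0338). Its ratios were 0.753, 0.707 and 0.581 at 60 min and 0.713, 0.727 and 0.650 at 90 min, against 0.914, 1.06 and 1.02 in sham.

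Ndufa10, an accessory subunit with a fold like that of nucleoside kinases, had another time course. Its adult ratios were 1.07, 1.00 and 0.932 in sham, 0.844, 0.845 and 1.09 at 30 min, 0.759, 0.707 and 0.673 at 60 min and 0.929, 0.885 and 0.862 at 90 min. The 90 min arrays lay above every 60 min array and just below sham. Ndufa10 fell by 0.49 at 60 min (SE 0.13, adjusted p = 0.0310) and was at -0.16 at 90 min (adjusted p = 0.392). The step from 60 to 90 min was 0.32, with an unadjusted p of 0.0171 and an adjusted p of 0.999. In young mice it was at -0.07, 0.05 and 0.15 at the 3 times.

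Ndufa4 has a complex I symbol but is now counted with complex IV. It was at -0.34 at 60 min and fell by 0.44 at 90 min (SE 0.13, adjusted p = 0.0468), with ratios of 0.736, 0.760 and 0.709 against 0.899, 1.05 and 1.06 in sham. Ndufv3, whose transcript has a long and a short form with different tissue use, was the least changed member of complex I at both times, at -0.25 and -0.05. At 90 min its arrays stood at 1.13, 1.07 and 0.747 and so lay on both sides of 1.

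Complex II was lower as a whole. All 4 genes lay below sham in every adult array at 60 and 90 min, with medians of -0.43 and -0.35. Sdhd encodes the small membrane anchor that, with Sdhc, holds the ubiquinone site. Its adult ratios were 1.01, 1.03 and 0.960 in sham, 0.704, 0.817 and 1.08 at 30 min, 0.775, 0.662 and 0.533 at 60 min and 0.616, 0.628 and 0.514 at 90 min. The 90 min arrays were below every sham array and also below replicates 1 and 2 at 60 min. Sdhd fell by 0.62 at 60 min (SE 0.17, adjusted p = 0.0343) and by 0.78 at 90 min (adjusted p = 0.0208), the lowest value of any member at that time. Sdha, the flavoprotein that oxidises succinate, fell by 0.46 at 60 min (adjusted p = 0.0360) and was at -0.35 at 90 min (adjusted p = 0.0959). Sdhb, the iron-sulfur subunit, was at -0.35 and -0.25, and Sdhc at -0.39 and -0.34, none of which passed.

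In complex III the members that fell were a catalytic subunit and the core proteins. All 9 genes lay below 0 in adults at 60 min, with a median of -0.39, and 3 fell: Uqcrc2, Uqcrfs1 and Uqcrc1. At 90 min the median was -0.21 and 0 passed, with 4 at an unadjusted p under 0.05 in limma (28.6% of all genes). Uqcrc2, a core protein on the matrix side, had adult ratios of 0.969, 1.01 and 1.02 in sham, 0.667, 0.732 and 1.13 at 30 min, 0.709, 0.620 and 0.529 at 60 min and 0.805, 0.749 and 0.639 at 90 min. The 30 min arrays were split, with 2 below sham and replicate 3 above it, and the longer times were all below sham. Uqcrfs1, the Rieske iron-sulfur protein, fell by 0.48 at 60 min (SE 0.16, adjusted p = 0.0496), with ratios of 0.857, 0.749 and 0.571 against 1.06, 1.06 and 0.882. Uqcrc1, the other core protein, fell by 0.39 (SE 0.11, adjusted p = 0.0341), with ratios of 0.813, 0.791 and 0.685 against 0.996, 1.07 and 0.936. The assembly factors matched by the rule did not pass: Uqcc1 was at -0.19 and -0.14 and Uqcc2 at -0.16 and 0.02 at 60 and 90 min. Uqcrq, a small subunit, was at -0.16 and -0.12 and did not pass either.

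In complex V the members that fell in adults at 60 min were Atp5b of the catalytic head, Atp5c1 of its shaft and Atp5g3 of the c-ring. All 14 genes lay below 0 in adults at both times, with medians of -0.38 and -0.35. Atp5c1 encodes the gamma subunit, the rotating shaft of the enzyme, and had ratios of 1.04, 1.01 and 0.950 in sham, 0.700, 0.763 and 1.20 at 30 min, 0.827, 0.590 and 0.469 at 60 min and 0.816, 0.677 and 0.536 at 90 min. Its 60 min arrays were all below sham but wide apart, and 0.469 was the lowest ratio of any member in any array. Atp5c1 fell by 0.71 at 60 min (SE 0.22, adjusted p = 0.0411) and was at -0.58 at 90 min (adjusted p = 0.0892).

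Atp5b, the catalytic beta subunit, moved less but more evenly. Its ratios were 1.04, 1.01 and 0.950 in sham, 0.894, 0.794 and 0.658 at 60 min and 0.819, 0.818 and 0.683 at 90 min, all 6 below sham. It fell by 0.36 at 60 min (SE 0.11, adjusted p = 0.0411) and by 0.37 at 90 min (adjusted p = 0.0459). Atp5a1, the alpha subunit, was at -0.39 (adjusted p = 0.0546) and -0.34. Atp5o, which encodes OSCP, the link of head and peripheral stalk, was at -0.41 and -0.59 (adjusted p = 0.133 and adjusted p = 0.0597).

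Atp5g1 and Atp5g3 encode the same mature c-ring protein with different import sequences. Atp5g3 fell by 0.43 in adults at 60 min (SE 0.14, adjusted p = 0.0484), with ratios of 0.860, 0.808 and 0.588 against 1.03, 1.01 and 0.951 in sham. Atp5g1 was at 0.859, 0.862 and 0.877 at 60 min against 1.01, 1.03 and 0.959, a log2 change of -0.21 (adjusted p = 0.104), and at -0.05 at 90 min. In young mice Atp5g1 was among the 3 highest members at 30 and 90 min, at 0.10 and 0.14, and its 3 ratios at 90 min were 1.12, 1.07 and 1.11. The difference between the 2 genes was not tested.

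**Figure D3:**
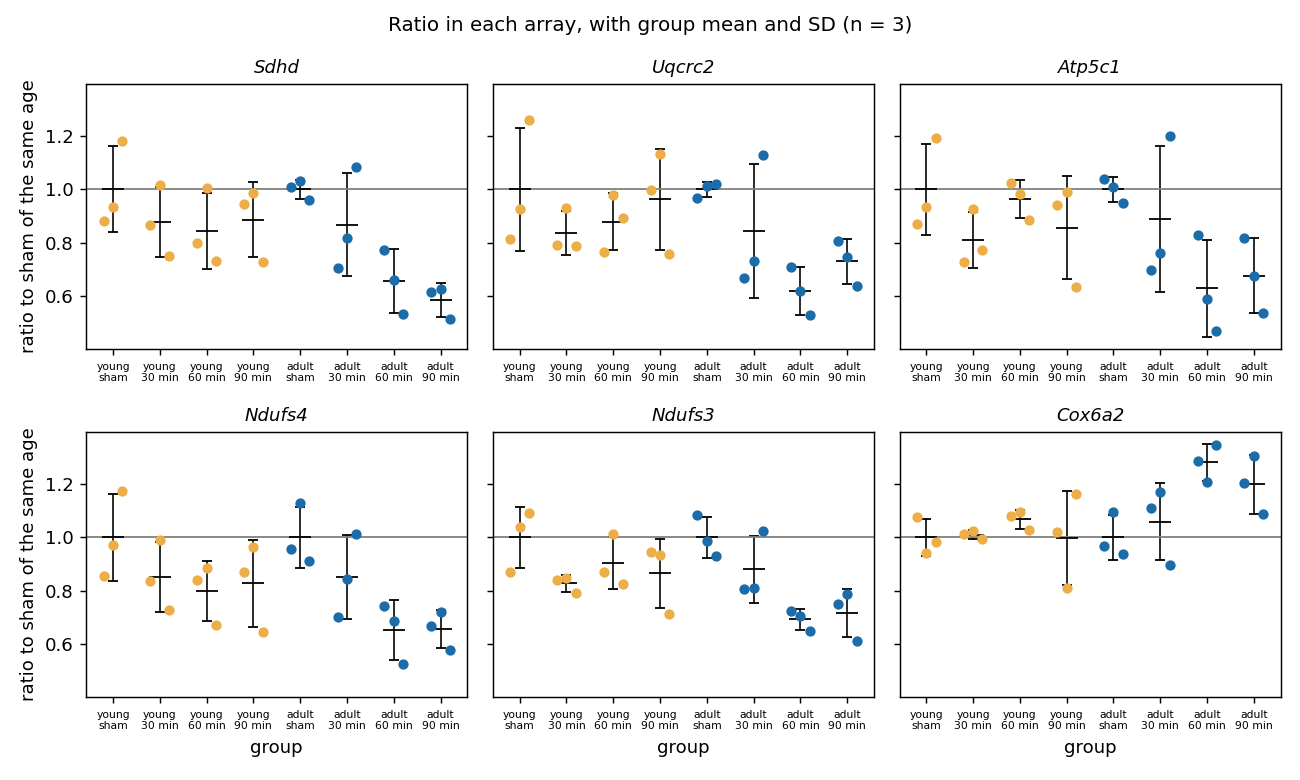
Ratio to the sham mean of the same age in each array (points, young in yellow and adult in blue) for 5 members that fell and 1 that rose in adults at 60 min, with the group mean and SD (n = 3) in black. The adult arrays at 60 and 90 min lie below the adult sham arrays for Sdhd, Uqcrc2, Atp5c1, Ndufs4 and Ndufs3, and the 60 min arrays lie above them for Cox6a2.

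In adults at 60 min complex IV was the only complex with members on both sides of 0, 12 below and 4 above. Of its 16 genes, 0 fell and 1 rose at 60 min in adults, and 1 fell and 0 rose at 90 min. Its median was -0.27 at both times. The 9 genes outside the tissue forms all lay below 0 at both times, with medians of -0.40 and -0.36, where those of the other complexes ran from -0.45 to -0.38 and from -0.35 to -0.21. Cox5a was at -0.60 at 60 min (SE 0.20, adjusted p = 0.0522) and Cox5b at -0.50 (adjusted p = 0.0943), both with arrays that did not overlap sham. The 7 tissue forms, Cox4i2 (lung and low oxygen), Cox6a2, Cox7a1 and Cox8b (heart and skeletal muscle) and Cox6b2, Cox7b2 and Cox8c (testis), had medians of 0.07 and 0.06. Since no level is known, these probe sets may or may not have measured transcripts above background in liver. The 38 olfactory receptor genes had medians of 0.11 and 0.09 and the 13 skeletal muscle markers 0.08 and 0.08 in the same comparisons, with 0 of the 13 muscle markers passing at either time. Of the 38 olfactory receptor genes, 3 rose at 60 min (Olfr15 by 0.64, Olfr544 by 0.47 and Olfr68 by 0.35), against 2.15% of all genes, and 0 rose at 90 min.

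Cox6a2 was the only member that rose in any comparison with sham. Its adult ratios were 0.969, 1.09 and 0.936 in sham, 1.11, 1.17 and 0.895 at 30 min, 1.29, 1.21 and 1.35 at 60 min and 1.21, 1.31 and 1.09 at 90 min. All 60 min arrays were above sham, the lowest 90 min array was at the level of the highest sham array, and the 30 min arrays overlapped sham. Cox6a2 rose by 0.36 at 60 min (SE 0.12, adjusted p = 0.0488) and was at 0.26 at 90 min (adjusted p = 0.145). Cox8b had adult ratios of 0.971, 1.07 and 0.954 in sham, 1.18, 1.24 and 1.25 at 30 min, 1.29, 0.957 and 1.41 at 60 min and 1.28, 1.57 and 1.15 at 90 min. All arrays but 60 min replicate 2 were above sham. Its log2 changes were 0.29, 0.27 and 0.41 (adjusted p = 0.475, adjusted p = 0.176 and adjusted p = 0.0675). Ucp1, a brown fat marker, rose by 0.47 and 0.51 at 60 and 90 min. Among the 6 brown fat markers 1 rose and 1, Elovl3, fell by 0.83 at 60 min, against 2.15% and 9.78% of all genes. At that time 3 of the 6 lay below 0 and their median was -0.14. At 90 min 2 rose, Ucp1 and Cpt1b (by 0.48), against 1.17% of all genes, with a median of 0.15. The part of these 6 markers in the values of the tissue forms was not tested.

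Pairs of broad and tissue forms were set against each other within each array, 6 pairs in each age. In adults Cox8a minus Cox8b averaged 0.00 ± 0.06 (SD, n = 3) in sham and -0.56 ± 0.33 (SD, n = 9) over the ischemia arrays of all times, and 9 of 9 ischemia arrays were below every sham array. A two-sided exact permutation test gave p = 0.0136 (smallest possible p = 0.00455) and an adjusted p of 0.164 over the 12 tests, so this pair did not pass. Adult Cox8a minus Cox8c, which uses the same Cox8a values, was lower by 0.29, with 6 of 9 arrays below sham (exact permutation p = 0.0955, adjusted p = 0.286). Adult Cox6a1 minus Cox6a2 was lower by 0.50 and Cox6b1 minus Cox6b2 by 0.42, each with 8 of 9 arrays below sham (exact permutation p = 0.0591, adjusted p = 0.236 for both). Adult Cox4i1 minus Cox4i2 and Cox7a2 minus Cox7a1 differed between sham and ischemia by -0.14 and -0.15 (exact permutation p = 0.477 and p = 0.355). With arrays left out in turn these differences ran from -0.24 to -0.079 and from -0.27 to -0.026, the ends being those without adult sham replicate 3 and adult 60 min replicate 3 for Cox4i and without adult sham replicates 1 and 3 for Cox7a. In young mice the 6 differences ran from -0.33 for Cox6b1 minus Cox6b2 to -0.04 for Cox7a2 minus Cox7a1 (exact permutation p = 0.132 and p = 0.714).

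**Figure D4:**
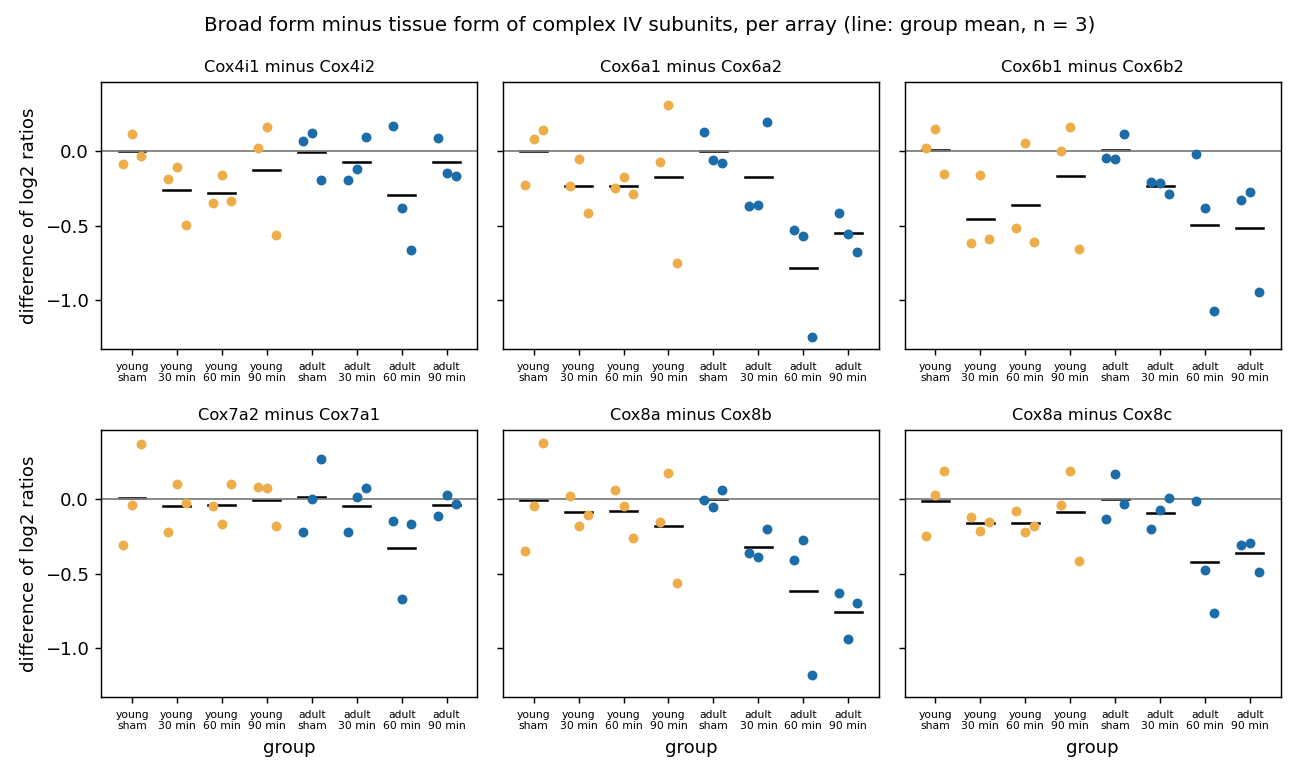
Difference of the log2 ratios of the broad and the tissue form of 6 complex IV subunit pairs in each array (points, young in yellow and adult in blue; black lines are group means, n = 3). The Cox8a minus Cox8b difference lies below the 3 adult sham arrays in 9 of 9 adult ischemia arrays, and 0 of the 12 comparisons passed after adjustment.

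Cox7a2l encodes a factor that joins complexes III and IV into supercomplexes. It fell by 0.36 in adults at 90 min (SE 0.10, adjusted p = 0.0414), with ratios of 0.756, 0.738 and 0.846 against 0.911, 1.03 and 1.06 in sham. In young mice at 90 min it was at 0.809, 0.782 and 0.753 against 0.918, 1.03 and 1.06, a log2 change of -0.35 (adjusted p = 0.194), and was the lowest member there. At 60 min its values were -0.21 in adults and -0.08 in young mice, with 1 adult array, at 1.02, among the sham values. Atpif1, which encodes the inhibitor of reverse ATP hydrolysis by complex V and is not matched by the symbol rule, was at -0.36 and -0.60 in adults at 60 and 90 min (adjusted p = 0.322 and adjusted p = 0.126).

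**Figure D5:**
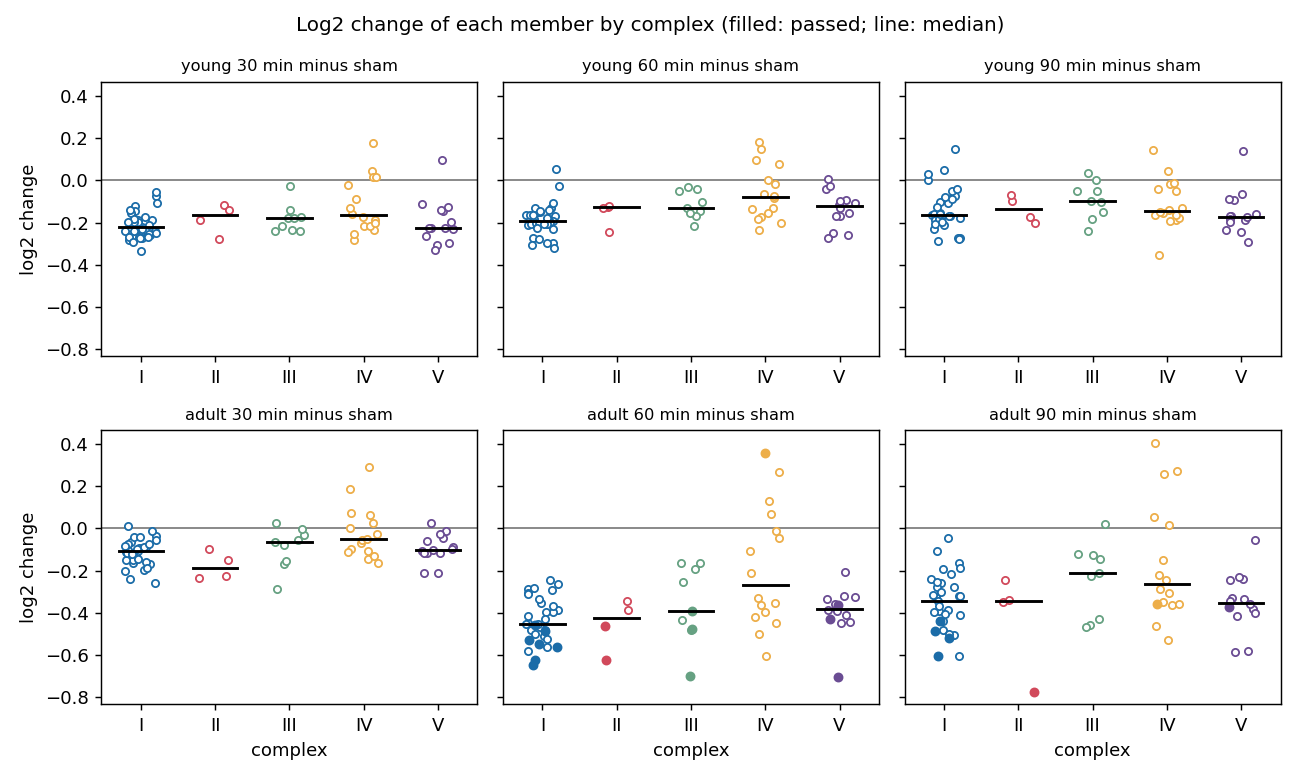
Log2 change against sham of every member (points; filled where it passed) by complex in the 6 comparisons with sham, with the median of each complex as a black line. In adults at 60 min the medians run from -0.45 in complex I to -0.27 in complex IV, where the tissue forms spread above 0.

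In young mice no member passed at any time. At 30 min 0.0488% of all genes fell and 0.00697% rose, at 60 min 0.0139% fell and 0.0139% rose, and at 90 min 0.111% fell and 0.0697% rose. Members at an unadjusted p under 0.05 in limma numbered 1 at 30 min, 0 at 60 min and 1 at 90 min, against 8.36%, 10.4% and 9% of all genes. The medians of the members were -0.20, -0.16 and -0.16 at the 3 times, with 71, 69 and 67 of 76 below 0, and 56.6%, 55.3% and 57.6% of all genes below 0. The arrays were all below sham in 7, 1 and 1 members, against 9.49%, 7.78% and 9.5% of all genes, and all above in 0, 2 and 0, against 5.31%, 5.54% and 4.45%. The 2 above sham at 60 min were Cox4i2 and Cox8c. At 30 min the lowest members were Ndufs8, a core subunit that carries iron-sulfur clusters, at -0.34 and Atp5mpl, a small ATP synthase subunit, at -0.33. The highest at 30 min were Cox6b2 at 0.18 and Atp5g1 at 0.10. At 60 min the lowest were Ndufs4 at -0.32 and Ndufb3 at -0.31, and the highest Cox6b2 at 0.18 and Cox4i2 at 0.15. At 90 min the lowest were Cox7a2l at -0.35 and Atp5mpl at -0.29, and the highest Ndufa10 at 0.15 and Cox7b2 at 0.15.

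The spread between young arrays was wide. The medians over all members were -0.14, 0.00 and 0.13 in the young sham arrays, and -0.41 and -0.49 in replicate 3 at 30 and 90 min. The hepatocyte marker median of either array was -0.29, and its part in the members' values was not tested. Uqcrc2, which fell by 0.70 in adults at 60 min (SE 0.19, adjusted p = 0.0319), stood at 0.814, 0.928 and 1.26 in the young sham arrays and at 0.765, 0.979 and 0.892 at 60 min, so these groups overlapped. Sdhd stood at 0.882, 0.935 and 1.18 in young sham and at 0.945, 0.988 and 0.728 at 90 min, again with overlap.

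Adult livers after 30 min showed little. No gene of the table fell or rose (0% and 0% of all genes), and 1 member had an unadjusted p under 0.05 (10.4% of all genes). The median of the members was -0.10 against -0.03 over all genes, with 67 of 76 below 0 (57% of all genes). No member had all arrays below sham (6.29% of all genes) and 1, Cox8b, had all above (5.17%). The lowest members were Uqcrc2 at -0.29 and Ndufa8, an accessory subunit of the intermembrane space, at -0.26, and the highest Cox8b at 0.29 and Cox6b2 at 0.19. In Uqcrc2, Atp5c1 and Sdhd replicates 1 and 2 were low and replicate 3 was above the highest sham array.

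The responses of the ages were compared by a test of the difference itself, and no gene of the table passed at 30, 60 or 90 min (0% in either direction). The sample titles hold a code whose first part is never shared between the ages. Age and whatever that part marks therefore cannot be told apart. Within an age the first parts are not evenly spread over the groups. The adult 90 min group lacks a first part that adult sham has, and each young ischemia group has one that young sham lacks. In those comparisons with sham, ischemia and whatever that part marks are partly mixed. At 60 min the adult minus young difference of the members had a median of -0.22, with 72 of 76 below 0 (59.4% of all genes), and 4 had an unadjusted p under 0.05 in limma (6.81% of all genes). These 4 were Ndufa10 at -0.54 (SE 0.18), Atp5c1 at -0.67, Ndufs3 at -0.38 and Uqcrc1 at -0.36, all with an adjusted p of 0.704. Ndufa10 was at -0.49 in adults and 0.05 in young mice, and Atp5c1 at -0.71 and -0.04. At 90 min the median was -0.18 with 69 of 76 below 0 (53.6% of all genes), and 1 member, Sdhd at -0.60 (SE 0.24, adjusted p = 0.431), had an unadjusted p under 0.05 (11.2% of all genes). At 30 min the median was 0.09, 14 of 76 lay below 0 (50.7% of all genes) and 0 had an unadjusted p under 0.05 (2.1% of all genes). The fall in adults is therefore past the threshold in one age only, and the test of the difference between the ages did not pass.

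Comparisons between ischemia times also gave no gene that passed (0% in either direction for each of the 4). From 30 to 60 min in adults the median of the members was -0.31, 74 of 76 lay below 0 (59.9% of all genes), 23 had an unadjusted p under 0.05 (8.78% of all genes) and 17 had all 60 min arrays below all 30 min arrays (8.06% of all genes). The lowest unadjusted p was that of Ndufa10 at -0.37 (SE 0.13, adjusted p = 0.563), followed by Ndufb5 at -0.49 and Ndufa9 at -0.36. From 60 to 90 min in adults the median was 0.07 and 1 member, Ndufa10, had an unadjusted p under 0.05 (3.19% of all genes). In young mice the medians were 0.05 from 30 to 60 min and 0.02 from 60 to 90 min, with 0 and 1 members at that p (5.16% and 9.33% of all genes), the latter being Cox7a2l at -0.27.

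Other genes of the pathway were read from lists, whose counts stand against the 9.78% and 6.28% of all genes that fell in adults at 60 and 90 min. Of 31 assembly factors, which build the complexes but do not stay in them, 11 fell in adults at 60 min with a median of -0.41, among them Coa6 at -0.64, Tmem70 (complex V) at -0.58 and Cox15 (heme A synthesis) at -0.53, and 2 fell at 90 min. Of 19 other carriers of the chain, 6 fell at 60 min with a median of -0.35, led by Cyc1, cytochrome c1 of complex III, at -0.58, Coq2 of ubiquinone synthesis at -0.55 and Etfb, a flavoprotein that feeds electrons from fat oxidation, at -0.51, and 1, Coq3, fell at 90 min. Cycs, cytochrome c, was at 0.05 and 0.01. Of 20 genes of the tricarboxylic acid cycle and pyruvate dehydrogenase, 13 fell at 60 min with a median of -0.46, led by Dld at -0.91, Fh1 at -0.81 and Sucla2 at -0.81, and 5 fell at 90 min with a median of -0.38. The 73 mitochondrial ribosomal protein genes had 23 that fell at 60 min and 15 at 90 min, with medians of -0.36 and -0.34, and the 34 genes with Rpl or Rps symbols had 3 and 1, with medians of -0.29 and -0.22. Of those 4 calls, Rpl23 and Rpl22 are ribosomal proteins, while Rpl7l1 and Rps19bp1 are named after one. The counts of assembly factors and of other carriers at 90 min, and of the Rpl and Rps genes at 60 min, were close to the share of all genes, and the Rpl and Rps count at 90 min was below it.

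Of 20 regulators of mitochondrial gene expression, 5 fell in adults at 60 min and 2 at 90 min, and 6 of the 20 lay above 0 at each of these times. The count at 90 min is near the share of all genes. Mterf3, which acts on mitochondrial transcription and ribosome assembly, fell by 0.77 and 0.69, with ratios of 0.659, 0.604 and 0.499 at 60 min and 0.622, 0.603 and 0.621 at 90 min. Lrpprc, which stabilises mitochondrial messenger RNA, fell by 0.46 at 60 min. Ppargc1a, the coactivator PGC-1alpha, was at -0.64 and -0.66 in adults (adjusted p = 0.101 and adjusted p = 0.113), and at -0.92 and -0.86 in young mice at 30 and 60 min (adjusted p = 0.222 and adjusted p = 0.274). Its young ratios at 30 min were 0.433, 0.534 and 0.475, and at 90 min its log2 change in young mice was -0.25. Ppargc1b was the lowest of the 20 regulators in young mice at 30 min, at -1.27 (adjusted p = 0.202).

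Markers of cell types stood beside these values as follows. Their counts in adults stand against the 9.78% and 6.28% of all genes that fell at 60 and 90 min. Of 14 hepatocyte markers 3 fell in adults at 60 min (Tdo2, Hpd and Cyp3a11) and 1, Hnf4a, at 90 min, with medians of -0.28 and -0.20 and 14 of 14 below 0 at both times. Of 13 Kupffer cell markers, which mark the resident macrophages, 1 fell at 60 min and 12 fell at 90 min, with medians of -0.48 and -1.18. Of 14 stellate cell markers 0 fell at 60 min and 3 fell at 90 min (Rgs5 by 0.80, Colec10 by 0.74 and Colec11 by 0.67), with medians of -0.11 and -0.21. In young mice at 90 min 4 of these stellate cell markers fell, against 0.111% of all genes, with a median of -0.60. Of 14 endothelial markers 0 and 1 fell in adults at 60 and 90 min, with medians of -0.22 and -0.29. The counts of 1 in Kupffer cell markers at 60 min, and in hepatocyte and endothelial markers at 90 min, were close to the share of all genes. None of the 14 T and NK cell, 6 cholangiocyte, 9 neutrophil and 3 red blood cell markers passed in adults at 60 or 90 min. Their medians at 60 and 90 min were 0.16 and 0.11, 0.0082 and 0.06, 0.02 and 0.03, and 0.09 and 0.06. Their part in the members' values was not tested.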

How the data were processed

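The authors deposited linear ratios, 1 per probe set and array, in which the mean of the 3 sham arrays of each age is 1 within 2e-07. Per the submitters' processing notes RMA was used, with no version, and further steps are not given in the sources used here. RefSeq accessions were paired with symbols: 15228 of 26180 probe sets had 1 symbol and 10952 had none. For the 661 genes with several probe sets 1 was kept by type and number of the accession, which left 14351 genes. All 24 arrays were fitted as log2 ratios with limma 3.58.1 in R 4.3.3 (8 group means, 16 residual degrees of freedom). Passing meant an adjusted p under 0.05 (two-sided, Benjamini-Hochberg over all genes within a comparison). Errors are standard errors of log2 changes unless SD is written.

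The values of 1 member are not reported here on its own. The members, the complexes and the gene lists were chosen with earlier results of these data known. Named are members that passed, up to 4 per complex and comparison, the 2 highest and 2 lowest of each comparison with sham, and the members of lists of core, tissue-specific, partner, c-ring and assembly genes. Uqcrq, Atp5o, Ppargc1a, Ppargc1b and Cycs fall outside this rule and were named after their values were seen. Motif letters and the isoform pair tests were chosen after seeing the data. Whether arrays that share the first part of the code in the titles are paired was not settled. Of 29 pairs of arrays that share it, 12 had correlated deviations over 0.1 (-0.38 to 0.42). The median correlation was 0.054 over these 29 pairs and -0.021 over pairs with another first part. The procedure was tested on simulated data with independent noise in each gene, which does not cover shifts shared by many genes within an array. Alternatives were each probe set alone, centring, quantile normalization, a replicate block, array weights, log2(ratio + 1), a robust prior, 1 age only and each array left out.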

Additional observations from a re-analysis of the deposited data

How the results depend on the processing

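Under array weights 25 members passed in adults at 60 min (24 fell), 24 at 90 min (22 fell), 4 at 30 min, and 2 in young mice at 90 min. They also gave 2 at 90 min in the comparison of the ages. After quantile normalization 0 passed in adults at 60 or 90 min. In a fit to the adult arrays alone 7 and 0 passed. With a replicate block (the first part of the title code, whose pairing of the arrays was not settled) 13 passed at 60 min and 4 at 90 min. With arrays left out in turn the counts ran from 0 to 29 in adults at 60 min and from 0 to 1 at 90 min. The log2 changes of the 16 and 7 members that passed kept their sign under all 8 of the other alternatives and with each array left out, at 50.3% to 131% of their values except on the log2(ratio + 1) scale, which lowers every value. The cause of these differences was not tested, other than that fewer arrays enter some fits. Of the isoform differences, young Cox7a2 minus Cox7a1 (-0.04) ran from -0.20 to 0.14 and young Cox8a minus Cox8b (-0.11) from -0.28 to 0.080 with arrays left out, both turning above 0 without young sham replicate 3.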
